A study of Mus musculus with 15 samples.

Results

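The keratins described here are 3 genes of the basal layer of epidermis, Krt5, Krt14 and Krt15, and 3 of the layers above it, Krt1, Krt2 and Krt10. They were taken by name, 1 transcript for each symbol, and are 6 of the 20418 gene symbols measured. Keratins form the intermediate filaments of epithelial cells, and each filament pairs a type II with a type I keratin. Basal cells of stratified epithelium make Krt5 (type II) with Krt14 or Krt15 (type I). Cells that leave the basal layer of epidermis and begin to differentiate switch to Krt1 or Krt2 (type II) with Krt10 (type I). Cornea and conjunctiva also hold basal cells with Krt5 and Krt14, but their upper layers use other keratins, so the suprabasal members point to skin-type stratification more than the basal ones do.

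Poly(A)+ RNA of mouse eyes, collected together with the eyelids, was sequenced in 15 libraries to study what the transcription factor Egr1 does in eyelid development. Newborn eyes gave 2 wild-type and 2 Egr1-/- libraries, adult eyes gave 1 wild-type and 2 Egr1-/- libraries, and 4 mice of day 3 gave 8 libraries, 1 for each eye. At day 3, of the Egr1-/- mice, E32 had only open eyes while E24 and E29 had the eyelids open on 1 side and closed on the other, and the Egr1+/- mouse E28 had only closed eyes. All mice are labelled BALB/c, and the Egr1-/- line came from C57BL/6 and was backcrossed first over 5 and then over 4 generations, so that segments of the donor genome could differ between groups, which was not tested. The labels give no eyelid state for newborn or adult eyes and name no animals there, so p-values at those ages measure only the spread between libraries. At day 3 eyelid state and genotype cannot be told apart between mice, because the only Egr1+/- mouse had closed eyes and both eyes of E32 were open.

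Reads in transcripts numbered 20334849 to 43907093 per library. Levels are given as RPKM, reads scaled to transcript length and to the library size after edgeR's TMM adjustment, which makes genes comparable by length. The level of Egr1 went against the genotype labels: it was 10.8 RPKM in the adult wild type and 15.3 and 19.8 in newborn wild types, but 50.9 to 119 RPKM in all libraries labelled knockout and 32.2 and 35.8 in the Egr1+/- eyes. Counts over a whole transcript do not show whether an allele was disrupted, so the Egr1-/- libraries are called labelled knockouts here and directions follow the labels. Lens and retina markers were present in every library, as the labelled tissue requires, but newborn labelled-knockout replicate 1 stood apart, with a summed level of 438 RPKM for the 6 lens markers against 68920 to 76140 in the other newborn libraries. In adults the first labelled knockout had 4822 RPKM of lens markers and 424 of the 3 cornea markers, against 21880 and 6201 in the wild type and 27900 and 3995 in the second. The right eye of E32 had 1314 RPKM of the 6 hair follicle markers, the left eye 71.9, and the other 6 eyes at day 3 had 10.97 to 12.7.

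The keratins sit in 2 clusters, the type II genes Krt5, Krt1 and Krt2 on chromosome 15 and the type I genes Krt14, Krt15 and Krt10 on chromosome 11, and neighbours in a cluster can share long identical stretches. One such stretch is shown because a read that falls inside it cannot be assigned to 1 gene, and because the partner, Krt16, is itself high in open eyes. Over windows of 36 bases in the GENCODE vM21 transcripts (GRCm38), 411 of 1663 windows of Krt14 (24.7%) were identical in another gene, 272 of them in Krt16 and 138 in Krt17. For Krt5 it was 235 of 2162 (10.9%), 187 of them in Krt6a and 88 in Krt6b. The share was 2.70% for Krt15, 0.31% for Krt2 and 0.05% for Krt10, and Krt1 shared no window. The stretch common to Krt14 and Krt16 is 134 bases of coding sequence in exon 1 of 8 of Krt14, at chr11:100207017-100207150 (minus strand).
Krt14 and Krt16: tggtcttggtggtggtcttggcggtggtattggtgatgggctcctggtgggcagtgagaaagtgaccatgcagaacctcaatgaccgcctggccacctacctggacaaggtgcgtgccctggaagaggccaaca

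The read length and the handling of reads that match several genes are not given in the sources used here. Levels of Krt14 and Krt5 therefore may hold some reads of Krt16, Krt17, Krt6a or Krt6b, or have lost reads to them, which was not tested. Krt1, Krt10 and Krt15 are little touched by such sharing.

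The promoters of a basal and a suprabasal member are shown to set the genes side by side. They are the 100 bases before the gene start in RefSeq (GRCm38.p6), at chr15:101712906-101713005 for Krt5 and chr11:99389365-99389464 for Krt10, both on the minus strand.
Krt5: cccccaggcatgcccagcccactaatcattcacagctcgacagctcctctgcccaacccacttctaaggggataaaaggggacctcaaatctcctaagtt
Krt10: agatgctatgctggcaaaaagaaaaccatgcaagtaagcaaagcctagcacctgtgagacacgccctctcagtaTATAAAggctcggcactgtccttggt
The capitals in Krt10 mark a TATA box motif (TATAAA), whose first base lies 26 bases before the start. The motifs TATAAA, AP-1 (TGANTCA), AP-2 (GCCNNNGGC), EGR (GCGNGGGCG) and SP (GGGCGG), were searched on both strands of windows of 300 bases around the start. That of Krt10 held no other match, and those of Krt5 and Krt2 held none. The search took only these exact letters, so stretches close to a motif were not counted. The lack of a match in Krt5 or Krt2 therefore does not show that such an element is missing. Over 32851 promoters of the same length, 13.6% held TATAAA, 7.81% the AP-1 motif, 16.6% the AP-2 motif, 5.55% the EGR motif and 35.7% the SP motif.

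The members differed in how far they varied over the 15 libraries. Krt15 moved least, with its highest library 7.17 times its lowest, followed by Krt5 with 19.7 times and Krt14 with 33.7 times. The suprabasal pair spanned far more, 553 times for Krt1 and 528 times for Krt10. Krt2, the late suprabasal type II keratin, had only 2 to 31 reads per library and stayed between 0.0312 and 0.575 RPKM, and with so few reads no change is read from its values.

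**Figure D1:**
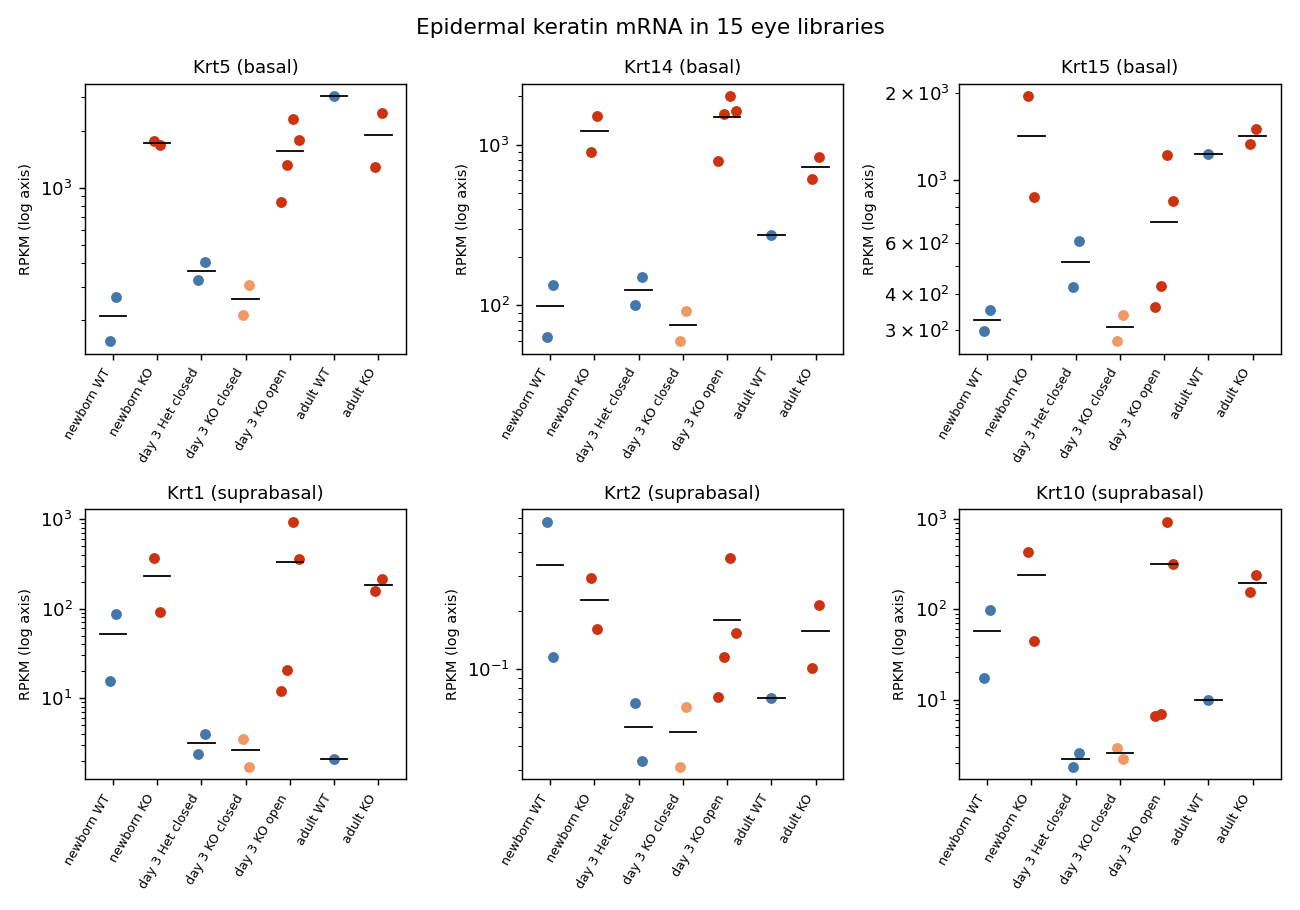
Level of each member in every library (RPKM, log axis), by group; points are libraries, black bars group means, blue wild type or Egr1+/-, orange closed and red other labelled-knockout libraries. Krt14 of the 4 open eyes lies at 787 to 2015 RPKM, above all 4 closed eyes at 59.8 to 150.2, while Krt1 and Krt10 of the open eyes split into the low eyes of E24 and E29 and the high eyes of E32.

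In newborn eyes the comparison asked how labelled knockouts differ from wild types at birth (n = 2 each). All 3 basal keratins rose, Krt14 the most, and no suprabasal keratin passed the test. Krt5, the type II keratin of the basal layer, had 155 and 266 RPKM in wild types against 1762 and 1692 in labelled knockouts. Krt14, its main type I partner, had 63.1 and 134.5 RPKM against 903 and 1521. Both labelled knockouts lay above both wild types for each gene, with no overlap. How many of all genes separated in this way was not counted, so with 2 libraries each the lack of overlap alone says little. Krt5 rose by 3.04 ± 0.59 (log2 fold change ± SE, edgeR quasi-likelihood test, adjusted p = 0.0112) and Krt14 by 3.62 ± 0.54 (adjusted p = 0.00535). Krt15, a type I keratin of basal cells that is also found in stem cells of the hair follicle, had 298 and 352 RPKM in wild types and 1958 and 869 in labelled knockouts. It rose by 2.13 ± 0.51 (adjusted p = 0.0236), again with no overlap. In all, 3 of the 6 members rose, and of all 17592 genes tested 14.6% rose.

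The suprabasal keratins of newborn eyes varied within each genotype as much as between them. Krt1, the early suprabasal type II keratin, had 15.4 and 87.3 RPKM in wild types and 366 and 91.5 in labelled knockouts, so that the lower labelled knockout was close to the higher wild type. Its log2 fold change was 2.15 ± 0.89 (edgeR, adjusted p = 0.127). Krt10, the type I partner of Krt1, had 17.5 and 98.4 RPKM against 433 and 44.4. The groups overlapped, and the log2 fold change was 2.03 ± 1.09 (adjusted p = 0.222). Krt2 stood at -0.57 ± 0.91 (adjusted p = 0.677). Within each genotype Krt1 and Krt10 were high or low in the same library.

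Not all of the newborn calls held when either wild-type library or labelled-knockout replicate 1 was left out. That leaves 1 library in a group, and fewer of all genes passed then, so a lost call is not particular to the keratins. Without wild-type replicate 1 the log2 fold changes were 2.72 for Krt5, 3.19 for Krt14 and 2.03 for Krt15. Without wild-type replicate 2 they were 3.52, 4.31 and 2.29. Without labelled-knockout replicate 1, which had little lens RNA, Krt5 stood at 3.01, Krt14 at 3.95 and Krt15 at 1.43, and Krt1 and Krt10 stood at 0.83 and -0.39.

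Genes that tie keratin filaments to the cell surface moved with the basal keratins in newborn eyes. Of 12 genes of basal anchorage, which hold basal cells to the basement membrane, 12 rose, with a median log2 fold change of 2.19 against -0.07 over all genes tested. Among them the laminin chains Lamb3 and Lama3 rose by 3.81 ± 0.27 and 3.60 ± 0.28, and the integrin Itgb4 by 3.45 ± 0.30. Of 12 genes of desmosomes and their plaques, where keratin filaments meet neighbouring cells, 10 rose (median 2.41), including the desmosomal cadherin Dsg3 (3.82 ± 0.32), the plaque proteins Dsp (2.77 ± 0.44) and Evpl (3.33 ± 0.49), and Ppl (2.43 ± 0.36). Of 20 genes of the granular and cornified layer 8 rose and none fell (median 2.46), among them the protease inhibitor Spink5 (4.49 ± 0.32), the crosslinking enzyme Tgm1 (2.42 ± 0.20), Cnfn (3.11 ± 0.50) and Krtdap (2.78 ± 0.42). Of 21 regulators of stratification 14 rose and 1 fell (median 1.74), with Ehf at 3.15 ± 0.33, Zfp750 at 3.04 ± 0.24, Grhl3 at 2.31 ± 0.29 and Cebpb at 2.08 ± 0.28. Of 21 other keratins of surface epithelia 13 rose (median 2.33), among them the stress keratins Krt6b (4.62 ± 0.39) and Krt6a (4.25 ± 0.45), the simple-epithelium keratin Krt8 (2.33 ± 0.19) and Krt23 (2.83 ± 0.28).

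Markers of other tissues moved in the same comparison, and their part in the keratin result was not tested. All 4 markers of epithelium of any kind rose, from summed levels of 33.6 and 42.2 RPKM in wild types to 363 and 288.3 in labelled knockouts, and all 6 conjunctiva and mucosa markers rose, from 123 and 132.5 to 2459 and 1255 RPKM. All 6 retina markers fell, from 348 and 391 to 38.3 and 92.2 RPKM, and 2 of 6 hair follicle markers fell, with sums of 58.5 and 226 against 54.7 and 40.9 RPKM. No lens or cornea marker passed (6 and 3 tested), while 1 of 4 skeletal muscle, 1 of 3 dermis and stroma and 2 of 4 white blood cell markers rose. No gene of these lists was at 0 in a newborn library. In whole eyes with eyelids, more cells of a type and more RNA per cell cannot be told apart.

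**Figure D2:**
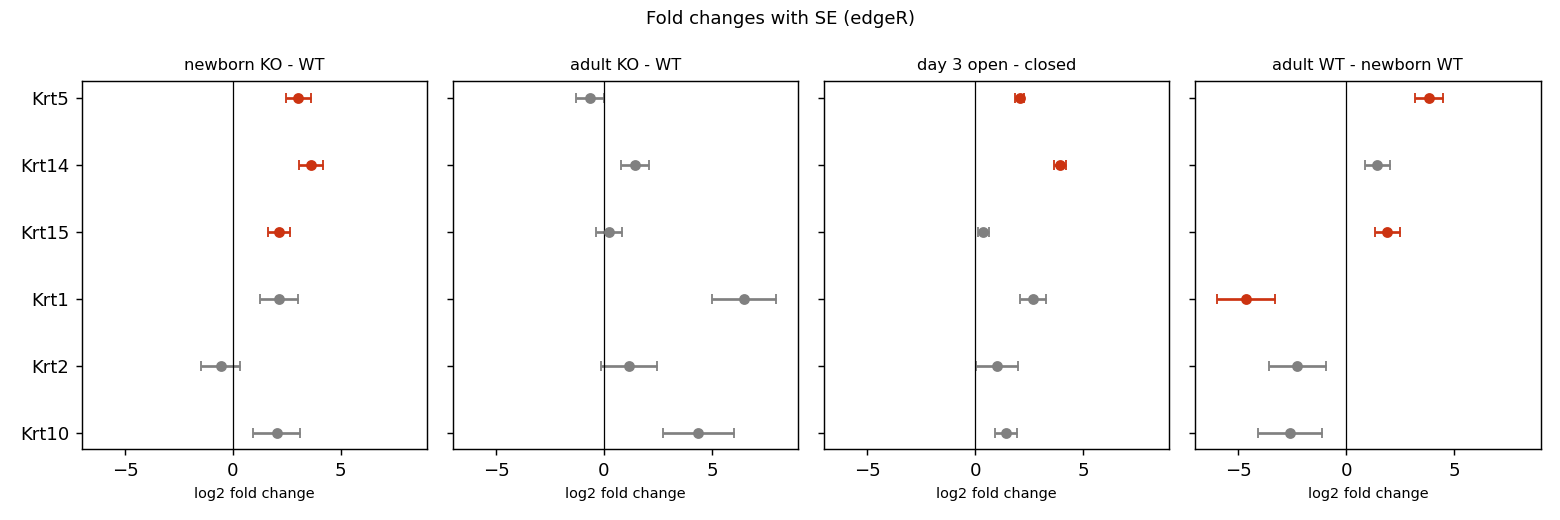
Log2 fold change of each member with its SE (edgeR) in 4 comparisons; red points passed an adjusted p of 0.05 and grey points did not. Krt14 and Krt5 lead the newborn comparison at 3.62 and 3.04, and Krt1 and Krt10 lead the adult one at 6.49 and 4.37, where no member passed.

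The adult comparison asked the same question in grown eyes, with 2 labelled knockouts and a lone wild type, which took its spread from the other groups. The largest log2 fold changes were in the suprabasal keratins Krt1 and Krt10, while Krt5 differed most in mean RPKM. Krt1 had 2.11 RPKM in the wild type against 158.5 and 212 in the labelled knockouts, and Krt10 had 9.84 against 158 and 239.6 RPKM. Both labelled knockouts lay far above the wild type for each gene. Their log2 fold changes were 6.49 (SE 1.501) for Krt1 and 4.37 ± 1.64 for Krt10, neither of which passed (edgeR, adjusted p = 0.797 and 1). Without the first labelled knockout, which had little lens and cornea RNA, they stood at 6.69 and 4.64 and did not pass either (adjusted p = 0.164 and 0.667). Krt5 had 3054 RPKM in the wild type, its highest level in the series, and 1292 and 2492 in the labelled knockouts (-0.66 ± 0.65). Krt14 had 274 against 610.5 and 841 RPKM (1.44 ± 0.64) and Krt15 1233 against 1327 and 1504 (0.23 ± 0.60).

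No adult member passed (0 of 6, with 2 at an unadjusted p under 0.05, Krt1 and Krt10), and of all 17592 genes 0% passed in edgeR, with 506 at an unadjusted p under 0.05. DESeq2 called 95 genes higher and 7 lower, Krt1 among them. Of the granular and cornified list none of 20 passed, with a median of 3.92 against 0.02 over all genes, and Krtdap stood at 6.31 ± 0.69, Cnfn at 5.47 ± 0.70 and Cdsn, the corneodesmosome protein, at 7.29 ± 1.08. The medians of the other lists were -0.20 for basal anchorage, 0.12 for desmosomes, 0.11 for regulators and 0.68 for other keratins, with none of their genes passing. The conjunctiva and mucosa markers had a summed level of 1308 RPKM in the wild type and 3704 and 6360 in the labelled knockouts, epithelium markers 216 against 184 and 281, and hair follicle markers 8.92 against 11.8 and 11.6 RPKM, with Krt35 at 0 in both labelled knockouts. The 4 white blood cell markers had 40.7 RPKM in the wild type against 355.5 and 118 in the labelled knockouts, with a median log2 fold change of 3.37 and none passing. The part of these tissues and cells in the keratin values was not tested.

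When both ages were fitted together with 1 genotype effect (n = 4 against 3), no member passed in edgeR, although 4 had an unadjusted p under 0.05. Krt14 stood at 2.68 ± 0.61 (adjusted p = 0.219), Krt1 at 3.41 ± 1.25 (0.225), Krt10 at 2.85 ± 1.09 (0.228) and Krt15 at 1.32 ± 0.53 (0.231). Of all genes 0.0114% passed, and DESeq2 called 3 members, Krt14, Krt1 and Krt10. Whether the genotype effect differed with age, adult minus newborn, was tested directly. It was negative for the basal keratins, -3.70 ± 0.85 for Krt5, -2.18 ± 0.76 for Krt14 and -1.89 ± 0.75 for Krt15, and positive for Krt1 (4.34 ± 1.52) and Krt10 (2.34 ± 1.75). None passed in edgeR (Krt5 adjusted p = 0.0656, the others 0.161 or more, 4 with an unadjusted p under 0.05), where 2.80% of all genes did. DESeq2 called the 3 basal keratins, and Krt5 passed without adult labelled-knockout replicate 2 (-4.28, edgeR adjusted p = 0.0189) or when the scaling left out crystallin genes (-3.72, adjusted p = 0.0428). Genes beside them did pass in this test: 5 of 12 basal anchorage genes, 2 of 12 desmosome genes, 5 of 21 regulators and 3 of 21 other keratins were negative, and none of 20 granular and cornified genes passed. All 4 markers of epithelium of any kind were negative too, with a median of -2.83 against 0.08 over all genes. The part of general epithelium in the keratin values was not tested.

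Adult and newborn wild-type eyes were compared to see how the members differ with age (n = 1 against 2). Krt5 rose by 3.83 ± 0.66 (edgeR, adjusted p = 0.00484) and Krt15 by 1.90 ± 0.57 (adjusted p = 0.0412), while Krt1 fell by 4.64 on the log2 scale (SE 1.37, adjusted p = 0.038). Krt14 stood at 1.44 ± 0.58 (adjusted p = 0.0991, and 0.0117 in DESeq2, which called it), Krt10 at -2.60 ± 1.48 (0.221) and Krt2 at -2.26 ± 1.32 (0.230). So 2 members rose where 18.0% of all genes did, and 1 fell where 14.6% did. Without newborn wild-type replicate 1 only Krt1 passed (Krt5 3.54, adjusted p = 0.0534), and without replicate 2 only Krt5 did (Krt1 -2.83, adjusted p = 0.110). Of the lists, 11 of 12 desmosome genes and 9 of 12 basal anchorage genes rose (medians 2.96 and 1.26 against -0.08 over all genes), 9 regulators rose and 3 fell of 21, 9 other keratins rose and 2 fell of 21, and 4 granular and cornified genes rose and 1 fell of 20, with a median of -2.36. The cornea markers were at 6201 RPKM in the adult wild type and at 39.0 and 51.4 RPKM in newborn wild types, and 1 of 3 passed. Of 6 hair follicle markers 5 fell, from 58.5 and 226 RPKM to 8.92, and all 6 conjunctiva and mucosa markers rose. Their part in the keratin values was not tested.

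At day 3 the open and the closed eye of the same mouse could be compared in E24 and E29. Krt14 differed most. It had 787 RPKM in the open and 59.8 in the closed eye of E24, and 1559 against 92.3 in E29, which is 13.2 and 16.9 times higher. The open eyes of E32 had 2015 and 1632 RPKM, and the closed eyes of E28 100.3 and 150.2. All 4 open eyes lay above all 4 closed eyes, though how many of all genes did so was not counted. With the mouse as a block Krt14 rose by 3.92 ± 0.28 (edgeR, adjusted p = 0.00261).

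Krt5 had 838 RPKM in the open and 213 in the closed eye of E24, and 1321 against 306 in E29, or 3.93 and 4.32 times higher. E32 had 2319 and 1780 RPKM and E28 325 and 405, again with no overlap between open and closed eyes. Krt5 rose by 2.06 ± 0.22 (edgeR, adjusted p = 0.0127). Krt15, by contrast with its basal partners, had 359 against 273 RPKM in E24 and 427 against 338.5 in E29, 1.31 and 1.26 times higher, while E32 had 1219 and 845 and E28 421 and 613 RPKM. Its open and closed eyes overlapped, and it stood at 0.38 ± 0.25 (adjusted p = 0.999). Thus 2 of 6 members rose, against 0.457% of all 15754 genes tested. When any eye of E24 or E29 was left out only 1 mouse informed the contrast. Neither gene passed then (Krt14 3.73 to 4.10, Krt5 1.98 to 2.13), as was so for nearly all genes tested. Without the left eye of E28 Krt5 did not pass (2.04, edgeR adjusted p = 0.0517).

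**Figure D3:**
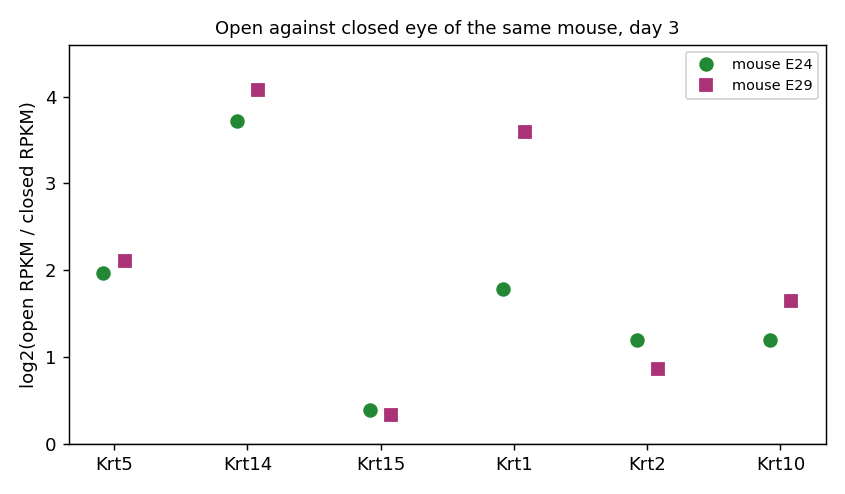
Log2 ratio of the level in the open eye to that in the closed eye of the same mouse, for each member, in E24 (circles) and E29 (squares) at day 3. Krt14 lies at 3.72 and 4.08 and Krt15 at 0.39 and 0.33, while Krt1 differs between the mice at 1.78 and 3.59.

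The suprabasal keratins were low in both eyes of E24 and E29. Krt1 had 12.1 RPKM in the open and 3.51 in the closed eye of E24, and 20.4 against 1.69 in E29. Krt10 had 6.61 against 2.88 and 6.90 against 2.22 RPKM. Each was higher in the open eye of both mice, but neither passed (Krt1 2.68 ± 0.61, edgeR adjusted p = 0.194, and Krt10 1.43 ± 0.50, adjusted p = 0.577). Without the right or the left eye of E32 both passed (Krt1 2.64 and 2.64, adjusted p = 0.0426 and 0.0442, Krt10 1.41 and 1.41, adjusted p = 0.0317 and 0.0365), and Krt1 passed with the 4 eyes of E24 and E29 alone (2.65, adjusted p = 0.0446). DESeq2 called Krt1 with all 8 eyes (2.68, adjusted p = 0.0314).

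Both eyes of E32 stood apart from the other open eyes in the suprabasal members. Krt1 had 937 RPKM in the right and 356 in the left eye of this mouse, and Krt10 942 and 318, against at most 20.4 RPKM for either gene in the other 6 eyes at day 3. The basal keratins of E32 differed less from the other open eyes, with Krt14 at 2015 and 1632 RPKM against 787 and 1559. The summed hair follicle markers, at 1314 and 71.9 RPKM in E32 and 10.97 to 12.7 in the other eyes, were high in the same mouse. Krt71 had 543 and 26.1 RPKM in E32 against 0.811 or less elsewhere at day 3. Krt73 alone among these markers was not high in both eyes of E32. It had 64.3 RPKM in the right and 4.28 in the left eye, against 6.93 to 9.985 elsewhere at day 3. Whether the hair follicle markers and the suprabasal members are linked was not tested.

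Other genes of keratinocytes in open against closed eyes followed the basal pair in part. Of 12 basal anchorage genes 3 rose, among them Lamb3 (2.99 ± 0.26) and Lama3 (2.80 ± 0.28), with a list median of 0.70 against 0.02 over all genes. Of 12 desmosome genes 4 rose (median 1.79), Dsg3 (2.68 ± 0.23), Dsp (2.48 ± 0.27), Pkp1 (2.44 ± 0.27) and Pkp3 (2.53 ± 0.36). Of 20 granular and cornified genes 3 rose (median 2.74), Cnfn (9.11 ± 0.82), Tgm1 (2.50 ± 0.25) and Asprv1 (3.14 ± 0.36), while Spink5 at 6.14 ± 0.93 narrowly did not pass (adjusted p = 0.0522). None of 21 regulators passed (median 0.68), Elf3 coming nearest at 2.17 ± 0.34 (adjusted p = 0.0602). Of 19 other keratins tested 7 rose and 1 fell (median 1.88), with Krt6b at 4.16 ± 0.17, Krt6a at 3.67 ± 0.21, Krt16 at 4.67 ± 0.29 and Krt4, a mucosal keratin, at 3.10 ± 0.26.

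Krt16, Krt17 and Krt6a, which share sequence with Krt14 or Krt5, were high in the same open eyes. Krt16 had 199 (E24), 281 (E29), 291.5 and 344 RPKM (E32) in open eyes and 7.84 (E24), 11.3 (E29), 10.2 and 17.3 RPKM (E28) in closed eyes. Krt17 had 286 (E24), 942 (E29), 1289 and 840.5 RPKM (E32) in open eyes and 15.3 to 54.4 in closed eyes. Both lay below Krt14 in each open eye, Krt17 less far than Krt16 (Krt14 had 787, 1559, 2015 and 1632 RPKM). Krt6a had 519 (E24), 786 (E29), 865 and 907 RPKM (E32) in open eyes and 47.7 to 86.8 in closed eyes. Of markers of other tissues, 1 of 4 for epithelium of any kind rose, with sums of 88.8 (E24) and 306.5 (E29) in open and 26.1 and 57.5 RPKM in closed eyes. The marker that rose was Cldn4, at 2.62 ± 0.31 (edgeR, adjusted p = 0.0172). Epcam (1.52 ± 0.81) and Esrp1 (1.39 ± 0.60) did not pass. Cdh1, the general epithelial cadherin, had the smallest change of the 4, 1.09 ± 0.33 (edgeR, adjusted p = 0.408). Of 6 conjunctiva and mucosa markers 3 rose, with sums of 890 and 738 against 111 and 148 RPKM and Muc5ac at 0 in the closed eye of E29, and 1 of 3 cornea markers fell (53.6 and 36.9 against 77.1 and 97.2 RPKM). No marker of hair follicle, lens, retina, muscle, stroma or white blood cells passed. Their part in the keratin result was not tested.

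Between mice at day 3, labelled knockouts (n = 3 mice, eyes summed) and the lone Egr1+/- mouse were compared, and no member passed in edgeR, where 0% of 16453 genes passed and 273 had an unadjusted p under 0.05. Of the members, 1 had an unadjusted p under 0.05, Krt14, at 3.15 ± 1.00 (adjusted p = 0.999), and DESeq2 called Krt14 alone among them and 91 genes higher and 5 lower in all. Krt5 stood at 1.72 ± 0.90, Krt15 at 0.26 ± 0.78, Krt1 at 6.29 ± 3.75 and Krt10 at 6.76 ± 4.29, with E32 giving the high suprabasal levels. With closed eyes alone, E24 and E29 against E28, the values turned to -0.44 for Krt5, -0.66 for Krt14, -0.70 for Krt15 and -0.21 for Krt1, none of which passed, and without E32 Krt15 stood at -0.51. No list had a gene that passed, and the list medians were 0.81 for basal anchorage, 1.91 for desmosomes, 5.86 for granular and cornified genes, 1.22 for regulators and 1.82 for other keratins, against 0.03 over all genes.

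The balance of the basal and suprabasal members was described by the log2 ratio of their summed levels, basal over suprabasal, in each library, with no test. It was 8.57 in the adult wild type and 3.35 and 3.42 in the adult labelled knockouts. In newborn eyes it was 3.95 and 2.02 in wild types and 2.53 and 4.91 in labelled knockouts, overlapping. At day 3 it was 6.41 (E24) and 7.53 (E29) in closed labelled-knockout eyes and 7.64 and 7.48 in E28. The open eyes split: 6.72 (E24) and 6.92 (E29) lay near the closed eyes, and the eyes of E32 were far lower, the left at 2.66 within the range of newborn eyes and the right at 1.56 below it. The difference between groups was 0.74 in newborn eyes, less than the spread between libraries (SD 1.53), -5.18 in adults, and -0.15 within E24 and E29 (0.31 in E24 and -0.62 in E29). Between mice at day 3 it was -2.26 (SD 2.78), and -0.67 without E32. As a share of the summed level of the 6 keratins, the suprabasal members made up 0.263% in the adult wild type and 8.93% and 8.54% in adult labelled knockouts, 0.498% to 1.16% in closed eyes, 0.938% and 0.822% in the open eyes of E24 and E29, and 25.3% and 13.7% in those of E32.

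**Figure D4:**
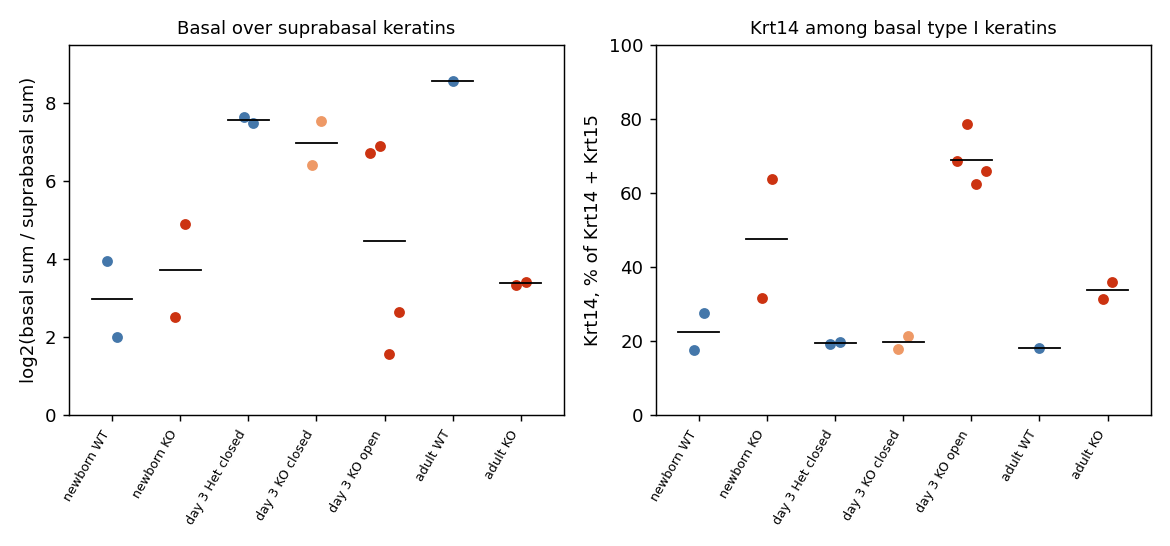
Left, log2 ratio of the summed RPKM of Krt5, Krt14 and Krt15 to that of Krt1, Krt2 and Krt10; right, Krt14 as a percent of Krt14 plus Krt15; each point is a library and each bar a group mean. On the right the 4 open eyes lie at 62.3% to 78.5% and the 4 closed eyes at 18.0% to 21.4%, while in the left panel the open eyes spread from 1.56 to 6.92.

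Among the 2 basal type I keratins the share of Krt14 separated the eyelid states at day 3. The RNA came from whole eyes with eyelids, so this share does not describe a single cell layer. Krt14 made up 68.7% (E24), 78.5% (E29), 62.3% and 65.9% (E32) of Krt14 plus Krt15 in open eyes. In closed eyes it made up 18.0% (E24), 21.4% (E29), 19.3% and 19.7% (E28). In newborns it was 17.5% and 27.6% in wild types and 31.6% and 63.6% in labelled knockouts, and in adults 18.2% in the wild type and 31.5% and 35.9% in labelled knockouts. The wild-type and closed-eye libraries thus all lay at or below 27.6% and the other libraries at or above 31.5%, a grouping made after the values were seen. This gap is smaller than that between the 2 newborn labelled knockouts, at 31.6% and 63.6%. Newborn and adult eyes have no labelled eyelid state, and other gene pairs were not examined, so the share is not shown to mark eyelid state or genotype over the series. Since 24.7% of the windows of Krt14 match other keratins that were high in open eyes, part of the Krt14 share could come from them, which was not tested. The log2 ratio of Krt5 to Krt14 was 1.43 to 1.84 in closed eyes and -0.24 to 0.20 in open eyes.

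The log2 ratio of Krt1 to Krt10 lay between -0.39 and 1.56 in all libraries but the adult wild type, where it was -2.22 with 112 reads of Krt1 and 447 of Krt10. Across the 15 libraries the mean absolute difference of centred log2(CPM + 1) values was 0.521 for Krt1 and Krt10. It was 0.715 for Krt5 and Krt14, 0.746 for Krt5 and Krt15, and 1.24 for Krt14 and Krt15, but genes that vary little score low on this measure, so values of members with different spans cannot be ranked against each other.

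Among 12924 other genes, those nearest in pattern by the same measure differed between the layers. Nearest to Krt5 were Dsp, a plaque protein of desmosomes (0.215), and Pvrl4 (0.241). Nearest to Krt14 were Sfn (0.368), Krt6a (0.387) and Adam8 (0.499), and nearest to Krt15 were H2-T23 (0.181), Pycard (0.198) and Ccdc3 (0.209). Nearest to both Krt1 and Krt10 were the same 3 genes, Calm4 (0.577 and 0.540), Dmkn (0.736 and 0.995) and Lor, the main protein of the cornified envelope (0.830 and 0.893).

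The order of groups by mean level differed by member. Krt5 was highest in the adult wild type (3054 RPKM), above adult labelled knockouts (mean 1892), newborn labelled knockouts (1727) and open eyes (1564), and the ranges of these last groups overlapped. Below a gap came the Egr1+/- eyes (365), closed labelled-knockout eyes (259.7) and newborn wild types (210.2). Krt14 was highest in open eyes (mean 1498 RPKM) and newborn labelled knockouts (1212), which overlapped, then in adult labelled knockouts (726) and the adult wild type (274), with Egr1+/- eyes (125), newborn wild types (98.8) and closed labelled-knockout eyes (76.0) overlapping at the low end. Krt15 had adult labelled knockouts (1416), newborn labelled knockouts (1414) and the adult wild type (1233) at the top. Krt1 and Krt10 had their highest means in open eyes (331.5 and 318 RPKM), newborn labelled knockouts (229 and 239) and adult labelled knockouts (185 and 199), which overlapped. Newborn wild types followed by mean (51.4 and 58.0), and closed eyes of either genotype had means of 2.18 to 3.16 RPKM. The high open-eye means came from the eyes of E32. The open eyes of E24 and E29 had 12.1 and 20.4 RPKM of Krt1 and 6.61 and 6.90 of Krt10, below the newborn wild-type means. The adult wild type was among the low libraries for both, at 2.11 RPKM of Krt1 and 9.84 of Krt10.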

How the data were processed

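Poly(A)+ RNA libraries, amplified for 18 PCR cycles by a method that does not keep strand, came from eyes with eyelids; the labels mention both fixation and RNAlater, and which sequenced eyes were fixed is not stated. The authors deposited, for each library, raw read counts and RPKM values for 24373 transcripts. CASAVA 1.8, Bowtie 0.12.9, TopHat2 2.0.11, SAMtools and mm8 are named per the submitters' processing notes; the counting tool and annotation are not given in the sources used here.

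Of the transcripts of each of 20418 symbols, that of highest mean count was kept. Counts were tested with edgeR 4.0.16 in R 4.3.3 (filterByExpr, TMM, quasi-likelihood test, Benjamini-Hochberg adjusted p under 0.05 over all genes tested). An SE is the log2 fold change divided by the square root of F. Levels are RPKM recomputed from these counts with TMM totals; the authors' RPKM served as an alternative. The 7 newborn and adult libraries shared 1 fit, which lends the lone adult wild type the spread of the other groups. The fit of the 8 day 3 eyes held the mouse as a block; for genotype both eyes of a mouse were summed first, and the lone Egr1+/- mouse took its spread from the others. The main fit did not pair newborn libraries by replicate number. The differences of replicates hardly correlated across genes between the genotypes (r = 0.0657). Labelled-knockout replicate 1 had little lens RNA, so a low r cannot show that the replicates were unpaired.

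The members, lists, tests and alternatives were chosen with earlier results of these data known. Named were all members and up to 4 genes per list with the smallest p, the 3 genes nearest in pattern to each member (mean of at least 1 RPKM, nearest by mean absolute difference), Egr1, and keratins sharing sequence with a member; the 3 nearest to Krt2 are not printed because of its few reads, and Krt71 and the markers named singly were chosen after their values were seen. Some items that met these rules are not reported here. Plec, Tfap2a and Tfap2c were matched as Plec1, Tcfap2a and Tcfap2c; Flg and Muc16 were not matched. Counts were also simulated from the mean levels of these libraries, with the same fixed spread for every gene and library. They held no differences between mice or in dissected tissue, and only genes with enough reads were changed. There the newborn test recovered 74% of 4-fold and 100% of 8-fold changes (16787 genes), with 10 false calls. The open against closed test recovered 77% and 98% (15737 genes), with 3 false calls. These shares therefore do not measure the power of the tests in the real libraries. Alternatives were DESeq2 1.42.0, other scaling, filters and totals, all transcripts, other samples in the fit, and libraries or mice left out.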

Additional observations from a re-analysis of the deposited data

Results flagged for a closer look

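The summed level of the 6 hair follicle markers was 1314 RPKM in the right eye of E32, against 11.6, 12.1 and 71.9 RPKM in the other 3 open eyes at day 3. The gap to the nearest of them, as a share of the range of the 4 eyes, passed the critical value of Dixon's test. Chance passes it in about 1 of 20 groups of independent samples, but the right and left eyes of E32 come from the same mouse. Every member level, ratio of members and marker sum was screened at both ends, so a single pass among them carries little weight. Krt1 and Krt10 were also highest in this eye, at 937 and 942 RPKM. No level of a member and no ratio of members passed the same test among the open eyes. Where both eyes of E32 were high, as for Krt1 and Krt10, the test cannot single out either eye.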

How the results depend on the processing

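Of the fits of newborn and adult libraries, only the newborn one and that over both ages could leave out the lone adult wild type. Between mice at day 3 the lone Egr1+/- mouse always stayed in. Over both ages, the genotype effect without the adult wild type is that of newborn eyes alone (Krt5 3.01, Krt14 3.59 and Krt15 2.09). No other library left out over both ages gave a call. The number of members called depended on single libraries. With each library left out in turn it ran from 0 to 3 in newborn eyes, stayed at 0 in adults, ran from 0 to 3 over both ages, 0 to 1 for the difference between ages, 1 to 3 between wild types of the 2 ages, 0 to 4 for open against closed eyes, and stayed at 0 between mice at day 3. DESeq2 called 1 member in adults, 3 over both ages, 3 for the difference between ages, 4 between wild types of the 2 ages (adding Krt14), 3 for open against closed eyes (adding Krt1) and 1 between mice at day 3; scaling without crystallin genes called 1 for the difference between ages.

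Signs turned for Krt2 in newborn eyes (1.00 without wild-type replicate 1, -1.28 without replicate 2) and over both ages (0.026 with no filter, 0.15 with the authors' totals, 0.046 without adult labelled-knockout replicate 1, 1.06 without newborn wild-type replicate 1 and 0.39 without newborn labelled-knockout replicate 2), and for Krt10 in newborn eyes (-0.39 without labelled-knockout replicate 1, 3.81 without wild-type replicate 2). Between mice at day 3, closed eyes alone gave -0.44 for Krt5, -0.66 for Krt14, -0.70 for Krt15 and -0.21 for Krt1, and Krt15 was -0.51 without E32. The causes were not tested. Of 568 alternative log2 fold changes of members, 516 kept direction and side of the threshold, 19 lost a call, 21 gained one and 12 turned.

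The basal to suprabasal log2 difference in adults was -3.12 by the mean of log2(RPKM + 1), -5.39 with Krt5 and Krt14 against Krt1 and Krt10, and -2.92 with Krt14 against Krt10. For open against closed eyes these gave 0.94, 0.54 and 2.48. With libraries or mice left out the difference ran from -0.45 to 1.93 in newborn eyes, -5.22 to -5.15 in adults, -0.62 to 0.31 for open against closed eyes and -3.22 to -0.67 between mice. The lone adult wild type and the lone Egr1+/- mouse could not be left out. The ranges in adults and between mice therefore do not show how far the difference rests on them.

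With the 4 newborn libraries alone, a replicate block called 3 members (Krt5 3.04, Krt14 3.62, Krt15 1.96), as did the same libraries without the block. Without the mouse block, open against closed eyes gave 3 members, adding Krt1 (6.96), and 370 genes higher and 30 lower against 72 and 9 with it.

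Counts over all genes moved too. In newborn eyes 0 genes passed without wild-type replicate 1 (4734 at an unadjusted p under 0.05) against 2576 higher and 1650 lower with it. Krt2 had only 2 to 31 reads per library, which limits what its values can show.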
